A study of Homo sapiens with 4 samples.

Results

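The miR-34 family was measured in exosomes, small membrane vesicles shed into the culture medium, through a single arm of each of its hairpins. The measured arms were miR-34a-5p, miR-34b-3p and miR-34c-3p, 3 of the 1308 miRNA entries of the array, taken because the entry carries the name hsa-miR-34a, hsa-miR-34b or hsa-miR-34c, whatever the arm. The opposite arms, miR-34a-3p, miR-34b-5p and miR-34c-5p, were not analysed here. The source was Hep3B, a human liver cancer line that lacks the tumour suppressor p53, grown for 2 days in exosome-free medium. Cells of the camptothecin group (2 arrays) were given camptothecin at 10 µM, which traps topoisomerase I on DNA and leads to strand breaks. Cells of the untreated group (2 arrays) were given nothing according to the labels, although the ratio table's headers read DMSO, and the sources do not settle which is right. The arrays had 1 colour (Cy5), p53 is missing in both groups, and the labels do not tell whether arrays within a group stem from different cultures.

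The miR-34 family is a direct target of p53: after DNA damage, p53 binds near the starts of the miR-34a gene and of the shared miR-34b and miR-34c gene and raises their transcription. The 5p arms are the better known effectors and repress mRNAs for cyclin-dependent kinases, MYC, MET, BCL2 and the deacetylase SIRT1, which slows the cell cycle and favours apoptosis. The 3p arms come from the opposite side of the same hairpins and have other seeds, the seed being the stretch of a miRNA that pairs first with its targets. miR-34b and miR-34c are known mainly from multiciliated epithelia, testis and brain, whereas miR-34a is broadly expressed. The comparison with untreated cells asks how an anticancer drug alters the miRNAs that cells export, and for this family it does so in cells in which the p53 route is missing.

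The mature sequences from RefSeq (GRCh38.p14) are shown because they set out which entries can share targets. Capitals mark the seed, bases 2 to 8 from the 5′ end.
miR-34a-5p: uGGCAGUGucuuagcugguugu
miR-449b-5p: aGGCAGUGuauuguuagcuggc
miR-2682-5p: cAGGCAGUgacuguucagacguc
miR-34b-3p: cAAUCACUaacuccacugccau
miR-34c-3p: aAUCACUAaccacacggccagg
miR-34a-5p shares its seed with miR-449b-5p, the 1 other measured entry that RefSeq lists with it, and miR-2682-5p carries the same 7 bases 1 position further from its 5′ end. The 3p arms of miR-34b and miR-34c share a run of 10 bases that begins at base 2 of miR-34b-3p and at base 1 of miR-34c-3p, and 17 of 21 overlapping bases are identical. Their seeds therefore differ by a shift of 1 base, and no other miRNA of the RefSeq table used here has either seed. Whether the probes of these 2 arms bind each other's target was not tested.

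The hairpins place the measured arms, in capitals here. miR-34a-5p lies on the minus strand at chr1:9151735-9151756, inside the long noncoding host gene MIR34AHG.
MIR34A: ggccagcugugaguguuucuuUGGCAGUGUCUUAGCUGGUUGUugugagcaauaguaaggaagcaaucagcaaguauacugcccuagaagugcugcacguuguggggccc
miR-34b-3p (chr11:111512987-111513008) and miR-34c-3p (chr11:111513484-111513505) lie on the plus strand inside one host gene, MIR34BHG, with 417 bases between the hairpins.
MIR34B: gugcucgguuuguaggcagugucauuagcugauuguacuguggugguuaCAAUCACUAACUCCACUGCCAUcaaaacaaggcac
MIR34C: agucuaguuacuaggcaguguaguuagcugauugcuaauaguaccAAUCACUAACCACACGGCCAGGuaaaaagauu
The 5p arm sits before the loop in MIR34A, and the measured 3p arms sit after it in MIR34B and MIR34C.

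Values are the authors' deposited intensities, linear and in arbitrary units. The dimmest and brightest entries read 109 and 8435 on each camptothecin array and 91.4 and 12998 on each untreated array, and the 75th percentile was 250.2 on all 4. Within each group the 1308 sorted values were equal on both arrays, as quantile normalization within a group would give, so the spread between replicates had been reduced and p-values are too small. No entry is marked as detected or not, and having so few arrays limits the precision. The lowest intensity of any entry is far above 0, so a dim value is not separable from background here.

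All 3 miR-34 entries were of low or middle brightness, and as deposited all 3 were brighter on both camptothecin arrays than on both untreated arrays, an order that turned for miR-34a-5p and miR-34c-3p without the group factor described further on. miR-34a-5p, the main p53 effector of the family, read 138 and 152 on camptothecin replicates 1 and 2 and 120 and 118 on untreated replicates 1 and 2. miR-34b-3p read 187 and 212 after camptothecin and 155 and 145 without it. miR-34c-3p, from the neighbouring hairpin, read 185 and 190 after camptothecin and 174 and 173 without it. In each case camptothecin replicate 2 was the highest of the 4 arrays and the groups did not overlap. Of all 1308 entries, 59.4% had both camptothecin arrays above both untreated arrays, so this separation was the usual outcome among all entries.

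**Figure D1:**
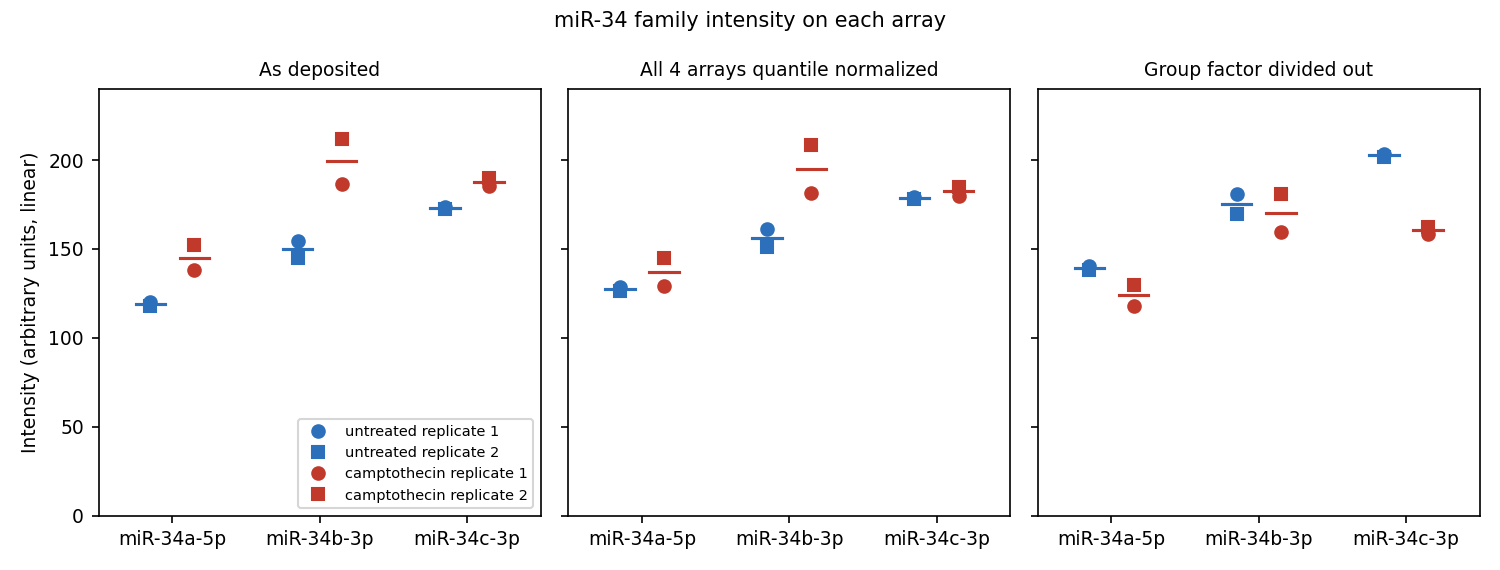
Intensity (linear, arbitrary units) of miR-34a-5p, miR-34b-3p and miR-34c-3p on each of the 4 arrays, as deposited, after quantile normalization of all 4 arrays, and with the group factor divided out. Points are arrays, bars are group means of 2 arrays; as deposited every red point lies above every blue point of its miRNA, and in the right panel the order is turned for miR-34a-5p and miR-34c-3p.

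Among all entries, the mean log2 level of miR-34a-5p stood at the 17.3 percentile, that of miR-34b-3p at the 54.1 percentile and that of miR-34c-3p at the 57.6 percentile. Probes differ in how brightly they report the same amount of RNA, so these percentiles place the probes and do not order the 3 miRNAs by abundance. The lower camptothecin value of miR-34a-5p was 1.27 times the dimmest entry of that group, and its lower untreated value was 1.29 times the dimmest entry there. For miR-34b-3p these ratios were 1.72 and 1.58, and for miR-34c-3p 1.70 and 1.89. After quantile normalization of all 4 arrays the level percentiles were 18.1, 54.7 and 57.6 in the same order.

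As deposited, miR-34b-3p rose most of the 3, by 1.33-fold, from 150 ± 6.9 to 199 ± 18 (SD, n = 2 per group; 0.41 ± 0.073 SE on the log2 scale, limma adjusted p = 0.0119), though without the group factor its log2 fold change was -0.044. miR-34a-5p rose by 1.22-fold, from 119 ± 1.5 to 145 ± 9.9 (0.28 ± 0.061 SE on the log2 scale, limma adjusted p = 0.0176), and without the factor it turned to -0.17. miR-34c-3p went from 173 ± 0.91 to 188 ± 3.3 and did not pass, with a log2 fold change of 0.12 and a 95% interval of 0.014 to 0.22 (limma adjusted p = 0.0645). Thus 2 of the 3 entries were called higher and 0 lower, where 46.3% of all 1308 entries were called, 35.1% as higher. The log2 fold change of miR-34c-3p was close to the median over all entries, 0.11. An exact two-sided permutation test of 2 arrays against 2 gave p = 0.333 for each member, the smallest value it allows. Leaving out any 1 of the 4 arrays left 0 of the 3 called. Over all entries 71 calls were left when camptothecin replicate 1 was dropped, 44 when replicate 2 of that group was dropped, and 1 when an untreated array was dropped.

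The change depended on level across the array, and the members were read against entries of like brightness. In the dimmest 327 entries (level group 1 of 4), which hold miR-34a-5p, the median log2 fold change as deposited was 0.21 and 61.5% were called higher. Both camptothecin arrays were above both untreated arrays in 90.2% of these entries. miR-34a-5p ranked 71 of those 327 from the highest change down. In level group 3, which holds miR-34b-3p and miR-34c-3p, the median was 0.062, 21.1% were called higher and 48% had both camptothecin arrays above both untreated arrays. There miR-34b-3p ranked 4 of 327 and miR-34c-3p 106. Among all 1308 entries their ranks were 160 for miR-34a-5p, 38 for miR-34b-3p and 643 for miR-34c-3p.

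**Figure D2:**
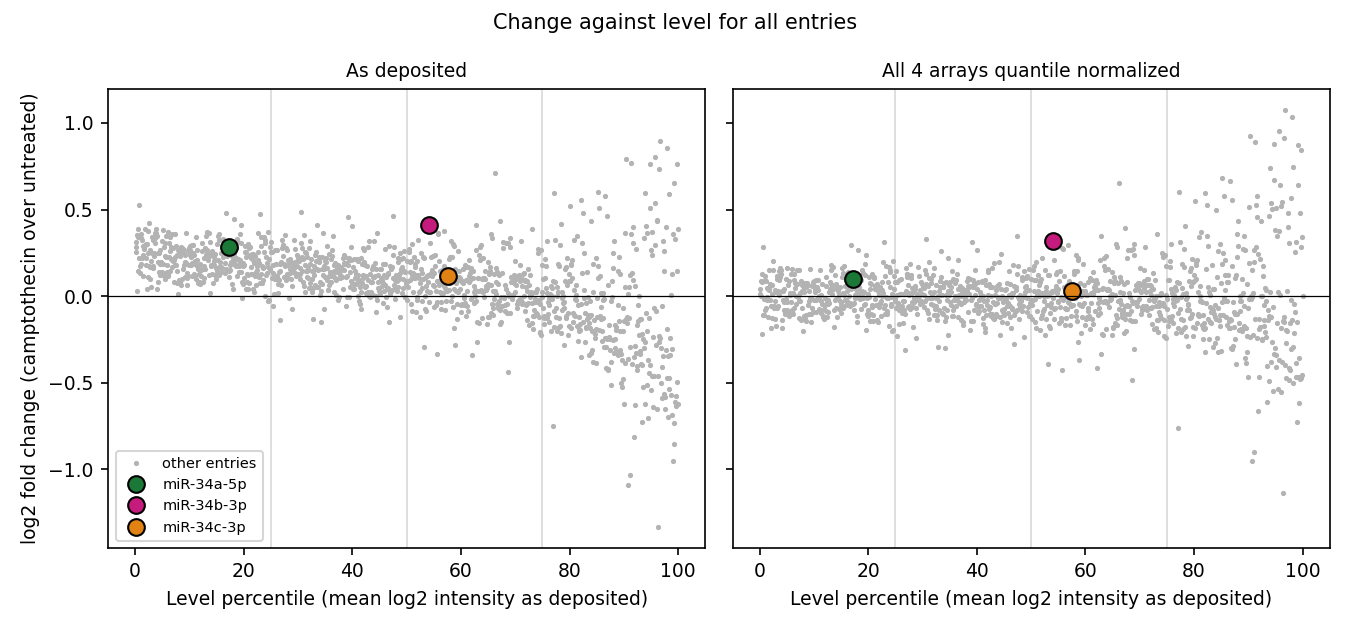
The log2 fold change of camptothecin over untreated against level percentile for all 1308 entries, as deposited on the left and with all 4 arrays quantile normalized on the right; grey lines part the 4 level groups. As deposited the dim entries lie mostly above 0, with miR-34a-5p among them, while miR-34b-3p lies near the upper edge of its level group in both panels.

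After quantile normalization of all 4 arrays, 0 of the 3 passed, where 12.9% of all entries did, 6.88% as higher. miR-34a-5p then read 129 and 145 after camptothecin and 129 and 127 without it, so that the lower camptothecin value exceeded the higher untreated one by 0.23. Its log2 fold change was 0.099, with a 95% interval of -0.068 to 0.27 (limma adjusted p = 0.385). miR-34b-3p read 181 and 208 after camptothecin against 161 and 151, still without overlap. Its log2 fold change was 0.32, with an interval of 0.12 to 0.51 (limma adjusted p = 0.055). miR-34c-3p read 180 and 185 against 179 and 178, a log2 fold change of 0.032 with an interval of -0.073 to 0.14 (limma adjusted p = 0.659). In these values 26.9% of all entries had both camptothecin arrays above both untreated arrays. miR-34b-3p ranked 56 of 1308 by log2 fold change and 5 of 327 in its level group, miR-34a-5p 250 and 55, and miR-34c-3p 484 and 120.

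Rank percentiles within an array do not move with any scaling of that array. miR-34a-5p stood at percentiles 14.3 and 34.6 on the camptothecin arrays and at 14.0 and 11.7 on the untreated arrays, so camptothecin replicate 2 stood apart from the other 3 arrays. miR-34b-3p stood at 57.9 and 66.5 against 47.9 and 40.6, higher on both camptothecin arrays. miR-34c-3p stood at 57.2 and 59.3 against 56.7 and 56.3. The mean change was 11.6 percentile points for miR-34a-5p, 18.0 for miR-34b-3p and 1.72 for miR-34c-3p, each with exact permutation p = 0.333, the smallest possible. Of all entries, 27.1% had higher ranks on both camptothecin arrays.

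The sign of the change itself rested on a factor per group. Divided by 1.17 in the camptothecin group and by 0.854 in the untreated group, the values of all 1308 entries became whole multiples of 0.5 (within 0.01 of a step of 0.585 or 0.427, in 100% of entries). Read as averages of whole scanner values over the 2 arrays of a group, the values had thus been multiplied to a common 75th percentile, from 213.8 and 292.8, the geometric mean of which is 250.2. On that reading, miR-34a-5p had been 118 and 130 after camptothecin and 140.5 and 138 without it, lower on both camptothecin arrays. miR-34b-3p had been 159.5 and 181 against 181 and 169.5, with overlapping groups. miR-34c-3p had been 158.5 and 162.5 against 203.5 and 202.

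With the factor divided out, the log2 fold changes were -0.17 for miR-34a-5p (limma adjusted p = 0.0384), -0.044 for miR-34b-3p (limma adjusted p = 0.578) and -0.34 for miR-34c-3p (limma adjusted p = 0.000814). The median over all entries was -0.34, and 89.1% of entries were called lower. Called lower were 2 of the 3 members, and both had non-overlapping groups, as had 95.2% of all entries in that direction. The cause of the lower overall signal of the camptothecin arrays was not tested. A set mass of RNA was labelled, so the values tell neither the number of vesicles nor the RNA per vesicle.

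**Figure D3:**
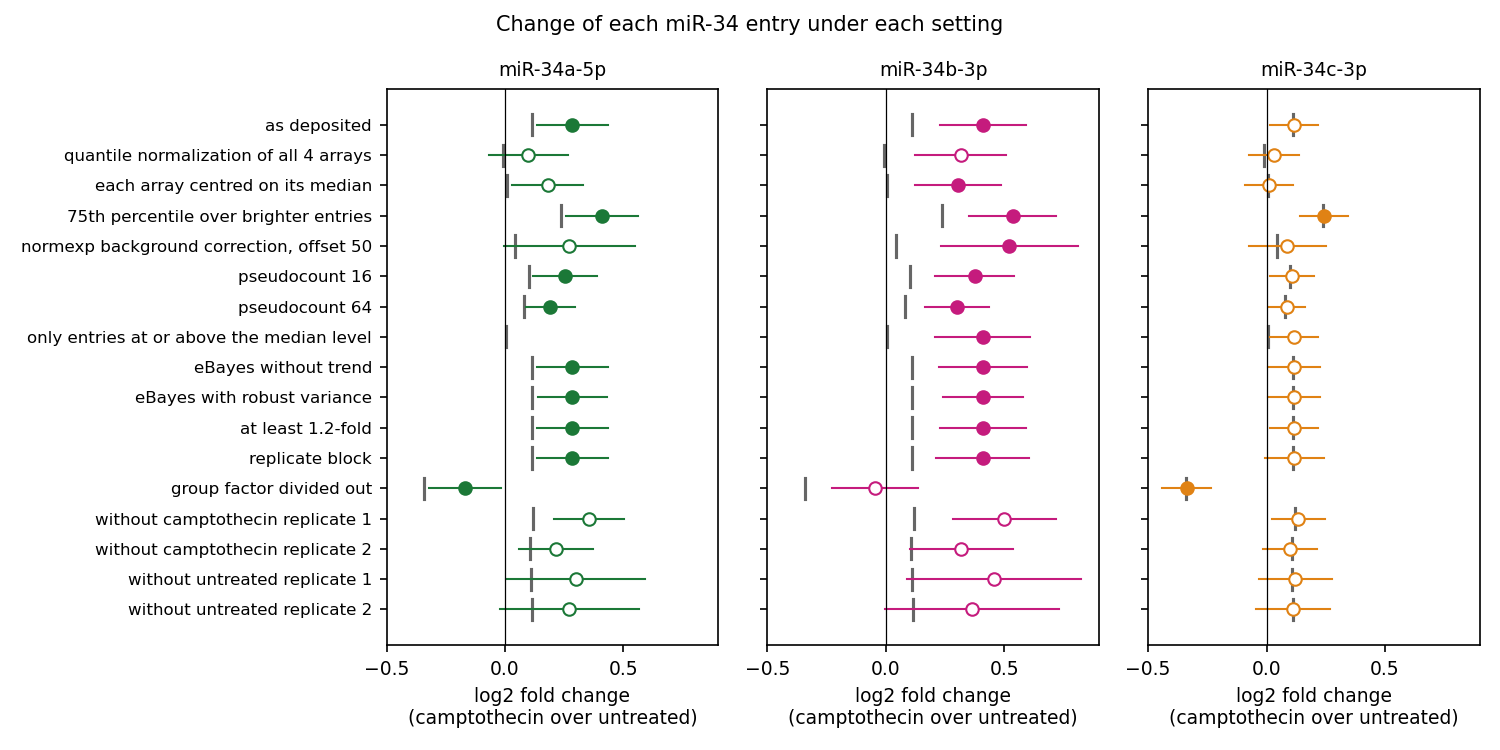
The log2 fold change of each miR-34 entry with its 95% interval under each setting; filled points passed the test, and grey ticks mark the median over all entries tested. miR-34b-3p lies to the right of the grey tick in every row and miR-34c-3p lies on or next to it except in the row limited to brighter entries, in which miR-34a-5p has no value.

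Differences between members on the same array do not depend on a factor per array. miR-34b-3p changed by 0.29 more than miR-34c-3p on the log2 scale, although both come from one host gene. The log2 difference of miR-34b-3p minus miR-34c-3p was 0.0091 and 0.16 on the camptothecin arrays and -0.17 and -0.25 on the untreated arrays, without overlap. The difference of their changes was 0.28 after quantile normalization of all 4 arrays. miR-34a-5p changed by 0.17 more than miR-34c-3p, also without overlap as deposited, but by 0.067 with overlapping groups after quantile normalization. Its change was 0.13 smaller than that of miR-34b-3p as deposited (miR-34a-5p minus miR-34b-3p, -0.13) and -0.22 after quantile normalization, without overlap. These were 3 pairs, each with exact permutation p = 0.333, also 0.333 after Benjamini-Hochberg adjustment, the smallest value the design allows. The share of pairs of other entries that separate in this way is not given here, so the lack of overlap is a description only.

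The authors' deposited table of ratios gives 4 log2 ratios for each member, 1 for each camptothecin array over each control array. In the authors' deposited table those of miR-34a-5p ran from 0.20 to 0.37, those of miR-34b-3p from 0.27 to 0.55 and those of miR-34c-3p from 0.093 to 0.14. The log2 gap between the 2 camptothecin arrays was 0.14 for miR-34a-5p, 0.18 for miR-34b-3p and 0.036 for miR-34c-3p. Between the 2 untreated arrays it was 0.026, 0.095 and 0.011. As deposited, the gap within the camptothecin group was smaller than the log2 fold change of each member. After quantile normalization the gap exceeded the log2 fold change for miR-34a-5p (0.17 against 0.099) and miR-34c-3p (0.039 against 0.032), and with the group factor divided out the gap of miR-34b-3p (0.18) exceeded the size of its change (-0.044).

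miR-449b-5p has the seed of miR-34a-5p, and miR-2682-5p, from another locus, carries it shifted by 1 base. Neither passed the test as deposited or after quantile normalization. Of all entries, 46.3% were called as deposited and 12.9% after quantile normalization. miR-449b-5p, of the miR-449 cluster that is active in multiciliated cells, read 143 and 149 after camptothecin and 135 and 131 without it (0.13 ± 0.046 SE on the log2 scale, limma adjusted p = 0.0652). miR-2682-5p read 149 and 140 against 120 and 134 (0.19 ± 0.070 SE, limma adjusted p = 0.0693). After quantile normalization their log2 fold changes were -0.035 and 0.017. miR-449a and miR-449c-5p were not analysed here. Of the 3 other arms of miR-449 and miR-2682 hairpins, miR-449c-3p was called higher as deposited (0.24 ± 0.058 SE, limma adjusted p = 0.0238), as were 35.1% of all entries. miR-449b-3p was called higher only after quantile normalization, with a log2 fold change of 0.29 (limma adjusted p = 0.0464) against 0.17 as deposited (limma adjusted p = 0.096). After quantile normalization 6.88% of all entries were called higher, and 18.7% in level group 4, the brightest, which holds miR-449b-3p. With the group factor divided out, the log2 fold changes of all these miR-449 and miR-2682 arms were below 0, and 89.1% of all entries were called lower.

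Other miRNAs reported as induced or matured under p53 were given from a list of 19, of which 14 were measured, 10 of them below the median level. As deposited, 9 of these 14 passed as higher and 1 as lower (of all entries 35.1% were called higher and 11.2% lower, and in level groups 1 and 2, the dimmer ones, 61.5% and 39.1% were called higher). Their median log2 fold change was 0.22, against 0.11 over all entries and 0.21 and 0.13 in level groups 1 and 2. After quantile normalization 3 were higher and 1 lower past the test (6.88% and 6.04% of all entries), and the median was 0.11 against -0.0093. With the group factor divided out, the log2 fold changes of all 14 were below 0. miR-145-5p, which represses MYC, read 165 and 163 after camptothecin and 124 and 130 without it, and was called higher in both (0.36 ± 0.045 SE, limma adjusted p = 0.00567; quantile 0.22, limma adjusted p = 0.0331). miR-1204, from the PVT1 locus, was also called higher in both, from 153 and 147 to 188 and 187 (0.32; quantile 0.22). miR-1246, whose sequence resembles U2 small nuclear RNA, was called higher only after quantile normalization (0.24, limma adjusted p = 0.039; as deposited 0.095, limma adjusted p = 0.152). miR-149-3p was the lower one in both, from 1400 and 1346 to 1077 and 997 (-0.41, quantile -0.27). miR-149-3p and miR-1246 lie in level group 4. There 18.7% were called higher after quantile normalization and 54 of 327 entries lower, with 129 of 327 lower as deposited. miR-145-5p lies in level group 2 and miR-1204 in level group 3, with 2.14% and 5.81% called higher after quantile normalization.

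The remaining higher calls of the list held as deposited and not after quantile normalization. They were miR-16-5p (log2 fold change 0.34), which represses cyclins and BCL2, miR-200c-3p (0.28), which represses the transcription factor ZEB1, miR-194-5p (0.27), miR-23a-3p (0.25), miR-192-5p (0.23), miR-215 (0.20) and miR-107 (0.16). After quantile normalization these 7 lay between 0.042 and 0.17. The log2 fold changes of miR-143-3p (0.061), miR-16-1-3p (0.15) and miR-1915-3p (-0.015) passed in neither. miR-34b-3p had a larger log2 fold change than each of the 14 as deposited (0.41) and after quantile normalization (0.32), while miR-34a-5p lay among them.

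**Figure D4:**
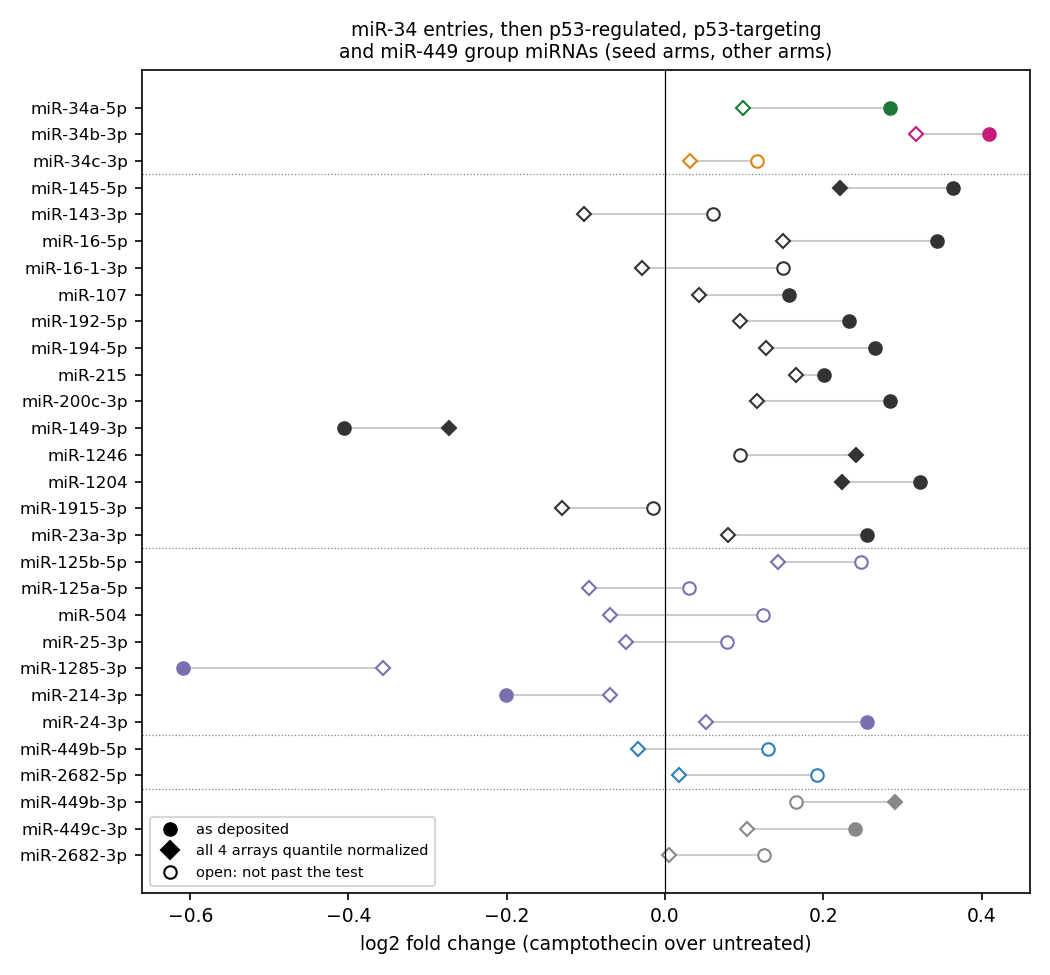
The log2 fold change of camptothecin over untreated for the miR-34 entries, the p53-regulated and p53-targeting miRNAs and the miR-449 and miR-2682 arms. Circles are values as deposited and diamonds those with all 4 arrays quantile normalized. Filled symbols passed the test. Most circles to the right of 0 have a diamond closer to 0, and miR-34b-3p keeps the rightmost diamond.

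Of 7 measured miRNAs reported to target p53 or its close partners, from a list of 11, 1 was called higher and 2 lower as deposited (35.1% and 11.2% of all entries), and 0 after quantile normalization (12.9% of all entries). Their median log2 fold change was 0.078, and -0.069 after quantile normalization; with the group factor divided out all 7 were below 0. The higher one was miR-24-3p (0.26) and the lower ones were miR-1285-3p (-0.61) and miR-214-3p (-0.20). miR-24-3p lies in level group 1, in which 61.5% of entries were called higher as deposited. Both lower ones lie in level group 4, in which 129 of 327 entries were called lower as deposited.

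Markers of the labelled cell type were dim. All 3 liver miRNAs lay below the median level, and miR-122-5p, which dominates the miRNA pool of hepatocytes, was at the 3.82 percentile. Their summed intensity was 454 to 457 after camptothecin and 360 to 386 without it. All 3 were called higher as deposited (35.1% of all entries) and 0 after quantile normalization (6.88%). The calls of miR-192-5p and miR-194-5p are the same ones already counted in the p53-regulated list. As deposited, 61.5% were called higher in level group 1, which holds miR-122-5p, and 39.1% in level group 2, which holds miR-192-5p and miR-194-5p. With the group factor divided out the log2 fold changes of all 3 liver miRNAs were below 0. All 3 muscle miRNAs were called higher as deposited (35.1% of all entries), and miR-1 and miR-206 also after quantile normalization (6.88%). Both of these lie in level group 4, the brightest, in which 18.7% were called higher in either setting. miR-133a lies in level group 1, with 61.5% called higher as deposited. The summed intensity of the muscle miRNAs was 963 to 973 against 731 to 762, though with the group factor divided out 2 of the 3 had log2 fold changes below 0. Of 5 blood-cell miRNAs 3 were measured and miR-150-5p was called higher as deposited (35.1% of all entries). The summed intensity of the 3 was 598 to 665 against 580 to 582, and with the factor divided out all 3 were below 0. None of these markers is at 0 on this array, whose values hold background, and their part in the miR-34 values was not tested.

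The entries whose 4 values lay nearest to those of each member, by Euclidean distance of log2 intensity over the 4 arrays, were named as a description. For miR-34a-5p they were miR-5092 (distance 0.040), miR-1343 (0.059) and miR-4531 (0.061), with log2 fold changes of 0.30, 0.28 and 0.26. For miR-34c-3p they were miR-5090 (0.041), the joint entry of miR-548ay-5p and miR-548d-5p (0.061) and miR-3160-5p (0.067). For miR-34b-3p the nearest were farther off, miR-129-1-3p (0.14), let-7d-3p (0.15) and miR-4776-3p (0.16), with log2 fold changes of 0.31, 0.36 and 0.38. All these distances are over the 4 arrays as deposited. The sorted values of these arrays were equal within each group and differed between the groups.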

How the data were processed

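Per the labels' protocols, a commercial kit isolated the exosomes from conditioned medium, and their small RNA was reverse-transcribed, amplified and labelled with Cy5. Scanner, background correction and normalization are not given in the sources. The deposited intensity values (arbitrary units, linear) were taken as log2 without a pseudocount. The authors' log2 ratios, which come with the probe names per the file headers, equal differences of the log2 intensities within 5e-10; 4 columns of per-array values beside them were not used. All 1308 entries were fitted in R 4.3.3 with limma 3.58.1 (lmFit, eBayes with intensity trend), two-sided, Benjamini-Hochberg adjusted, threshold 0.05; the code was tested on simulated data. Samples were grouped by labelled treatment. Named are the miR-34 entries, the 3 nearest entries of each, and listed miRNAs called as deposited or after quantile normalization of all 4 arrays, or else the 2 brightest of a list; other list members are named to complete a count. miR-215 and miR-504 stand on the array without an arm and were matched so. Members and lists were chosen with earlier results of these data known. Alternatives were other scalings, normexp correction, pseudocounts of 16 and 64, other filters and variance models, a replicate block, and arrays left out in turn; dividing out the group factor was added after seeing the data. Sequences are from RefSeq.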

Additional observations from a re-analysis of the deposited data

How the results depend on the processing

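Values are log2 fold changes or counts of calls by limma. The total of 606 calls became 169 with all 4 arrays quantile normalized, 330 with each array centred on its median, 975 with the 75th percentile taken over the brighter entries, 191 after normexp correction, 267 with dim entries below the median level left out (fewer entries tested), 302 with a 1.2-fold change required and 1177 with the group factor divided out, and it ranged from 1 to 71 with 1 array left out. Of the 3 miR-34 entries, 2 were called as deposited, 0 after quantile normalization, and 1 (miR-34b-3p) after centring and after normexp correction. With dim entries left out miR-34b-3p was called and miR-34c-3p was not, while miR-34a-5p was not tested. All 3 were called with the 75th percentile over brighter entries, as were 74.5% of all entries. miR-34a-5p missed the test after quantile normalization (0.099), centring (0.18) and normexp correction (0.27), and ranged from 0.21 to 0.35 with 1 array left out. miR-34b-3p missed it after quantile normalization (0.32) and ranged from 0.32 to 0.50 with 1 array left out. miR-34c-3p passed with the 75th percentile over brighter entries (0.24). With the group factor divided out the signs turned, to -0.17, -0.044 and -0.34 for miR-34a-5p, miR-34b-3p and miR-34c-3p, which follows from the factor ratio of 0.45 on the log2 scale.

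The p53-regulated list went from 10 calls to 4 (quantile), 3 (centring), 3 (normexp), 3 (dim entries left out, so fewer tested) and 6 (1.2-fold), and to 0 to 1 with 1 array left out. The p53-targeting list went from 3 to 0 (quantile), 5 (75th percentile over brighter entries), 0 (normexp), 1 (1.2-fold), 6 (factor divided out) and 0 with 1 array left out. The pair miR-449b-5p and miR-2682-5p went from 0 to 2 with the 75th percentile over brighter entries and with the factor divided out. In these 2 settings the p53-regulated list had 13 and 11 calls. Of all entries, 74.5% were called with the 75th percentile over brighter entries and 90% with the factor divided out. The share was 46.3% as deposited, 12.9% (quantile), 25.2% (centring), 14.6% (normexp), 40.8% (dim entries left out) and 23.1% (1.2-fold). Beyond these constructions the cause was not tested. The correlation of deviations by replicate number was -0.072. It cannot tell whether the arrays were paired, since the sorted values had been made equal within each group. The replicate number as a block gave 550 calls, with miR-34a-5p and miR-34b-3p still called and miR-34c-3p not (limma adjusted p = 0.108). Pseudocounts and the variance models changed no call of a miR-34 entry. Signal over background is unknown for all 3 entries.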
